A study of Drosophila melanogaster and Drosophila simulans and Drosophila yakuba with 24 samples.

Results

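The nicotinic acetylcholine receptor subunit genes of Drosophila melanogaster were examined in wild-type body parts. The family has 10 members, nAChRalpha1 to nAChRalpha7 and nAChRbeta1 to nAChRbeta3, and all 10 were found among the 13898 genes of the gene table by matching their current symbols to the table's FlyBase identifiers. For 9 of them the identifier itself matched, and nAChRalpha4 was matched by its annotation number, since the table lists it under the older identifier FBgn0037212 and the name nAcRalpha-80B. Heads, thorax, eviscerated abdomen and ovary came from Canton S wild-type females 10 days old, with 3 biologically independent total RNA-seq libraries per tissue and 12 in all. No mutation, transgene or drug distinguished the 4 groups. The piwi mutant fat bodies and the small RNA libraries of the same study have no gene-level values in the tables used here, so the subunits are described in the 4 wild-type tissues only.

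Acetylcholine is the main excitatory transmitter of the insect central nervous system, and nicotinic receptors are the ligand-gated cation channels through which it acts fast. Each channel is a ring of subunits of the Cys-loop family; alpha subunits carry a pair of neighbouring cysteines in the ligand-binding loop, and beta subunits lack it. The insect neuromuscular junction uses glutamate in place of acetylcholine, and nicotinic receptors are best known from neurons of the brain and ventral nerve cord. The brain lies in the head and the ventral nerve cord mostly in the thorax, where flight and leg muscle make up much of the tissue. The receptors are also the targets of neonicotinoid and spinosyn insecticides.

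Reads counted on genes ranged between 14040598 and 19208152 per library in head, 8087981 and 13630001 in thorax, 7884586 and 11600876 in eviscerated abdomen, and 22247599 and 32498809 in ovary. Marker genes fitted the labels of head, thorax and ovary. The 10 photoreceptor genes summed to between 33947 and 40488 CPM (reads per 1000000 reads of the library, scaled by TMM factors so that libraries of different makeup can be compared) in head, against 77.7 to 97.6 CPM in thorax. All 10 muscle genes were highest in thorax, and all 5 germline and all 6 follicle cell genes were highest in ovary. The eviscerated abdomen was less clear-cut. Of 8 fat body and oenocyte genes only 1 was highest there, and the abdomen libraries also held 675 to 1780 CPM of the germline genes and 4048 to 6009 CPM of the follicle cell genes, against 2422 to 2632 CPM and 10812 to 11687 CPM in ovary. The 9 pan-neuronal genes summed to 7904 to 9567 CPM in head, 1037 to 1458 CPM in thorax, 92.8 to 100.0 CPM in eviscerated abdomen and 17.7 to 18.9 CPM in ovary.

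The subunit transcripts were most abundant in head for 9 of the 10 genes, and nAChRbeta3 was most abundant in thorax. Head was compared with thorax in a single fit of edgeR's quasi-likelihood test over the 11188 genes with enough reads in the 12 libraries, and all fold changes below are log2 values of CPM from that fit unless another scale is named. At an adjusted p under 0.05 (Benjamini-Hochberg), 9 subunits were higher in head and 1 was lower, where 40.8% of all genes tested were called (23.2% higher and 17.6% lower in head). The 3 head libraries did not overlap the 3 thorax libraries for any subunit, as was the case for 55.4% of all genes tested. The median change of the 10 subunits was 2.49, beside 0.12 for all genes. In whole body parts, fewer neurons in a part and less RNA per neuron cannot be told apart.

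**Figure D1:**
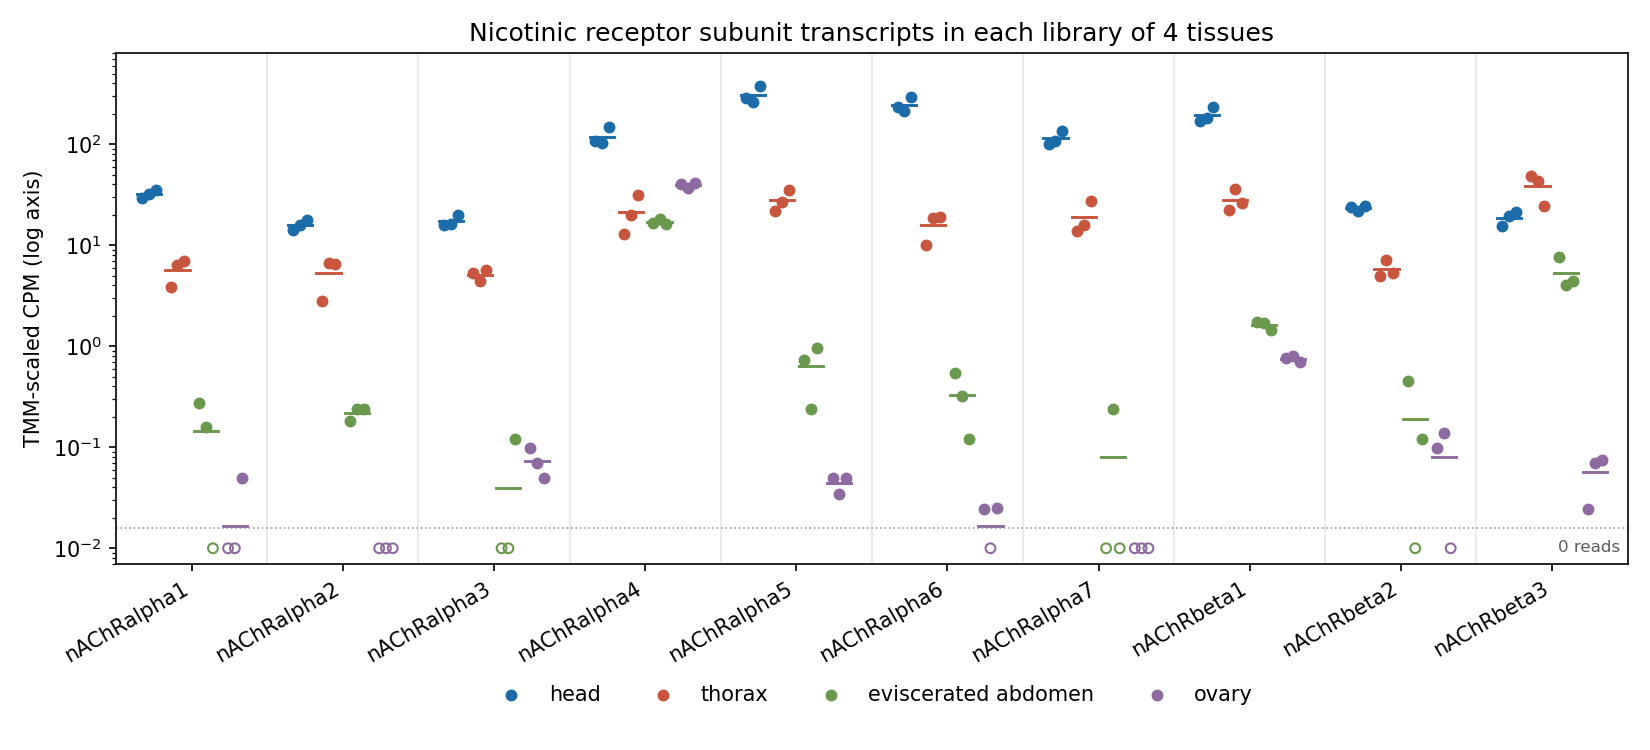
TMM-scaled CPM (log axis) of each subunit in the 3 head, thorax, eviscerated abdomen and ovary libraries; points are libraries, short lines are means of 3, and open circles under the dotted line are libraries with 0 reads. The head points lie above the thorax points for 9 subunits and below them for nAChRbeta3, and nAChRalpha4 alone stands near 40 CPM in ovary, between 36.7 and 41.6 CPM.

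The genes nAChRalpha1, nAChRalpha2 and nAChRbeta2 lie next to each other on chromosome arm 3R, with 1 protein-coding gene between nAChRalpha1 and nAChRalpha2 and 0 between nAChRalpha2 and nAChRbeta2. Mutants of nAChRalpha1 and nAChRbeta2 are known for resistance to neonicotinoids. nAChRalpha1 stood at 29.6, 32.1 and 35.4 CPM in head, against 3.85, 6.33 and 6.94 CPM in thorax. nAChRalpha2 had 14.1, 15.7 and 17.6 CPM in head, against 2.79, 6.62 and 6.52 CPM in thorax. For nAChRbeta2 the values were 24.0, 22.1 and 24.4 CPM in head, against 5.01, 7.20 and 5.27 CPM in thorax. Every head library was above every thorax library for the 3 clustered genes. The log2 fold change was 2.51 (SE 0.29, adjusted p = 1.01e-05) for nAChRalpha1, a 5.71-fold difference. It was 1.58 (SE 0.31, adjusted p = 0.00156) for nAChRalpha2, a 2.99-fold difference and the smallest of the 9 higher subunits. It was 2.00 (SE 0.36, adjusted p = 4.90e-04) for nAChRbeta2, a 4.01-fold difference. The intervals of the 3 genes overlapped, at 1.89 to 3.13 for nAChRalpha1, 0.91 to 2.26 for nAChRalpha2 and 1.24 to 2.77 for nAChRbeta2 (95%).

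nAChRalpha3 had 15.9, 16.4 and 19.7 CPM in head, against 5.30, 4.38 and 5.69 CPM in thorax. Its log2 fold change was 1.76 (SE 0.26, adjusted p = 8.70e-05), so that it was among the least head-biased members together with nAChRalpha2. The protein-coding gene CG1636 overlaps nAChRalpha3 in the annotation, with 28.3 ± 4.24 CPM in head and 53.9 ± 6.39 CPM in thorax. The part of CG1636 in the nAChRalpha3 counts was not tested. nAChRalpha4, known as redeye from a mutant that sleeps less, had 107, 102 and 146 CPM in head, against 12.9, 20.1 and 31.6 CPM in thorax. Its 3 thorax libraries spread widely, yet all lay under the head libraries, and the log2 fold change was 2.47 (SE 0.26, adjusted p = 4.92e-06).

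nAChRalpha5, nAChRalpha6 and nAChRalpha7 are the subunits most similar to the vertebrate alpha7 receptor; nAChRalpha6 is the target of spinosad, and nAChRalpha7 was named gfA in the table, after its part in the giant fibre escape circuit. nAChRalpha5 had 289, 259.6 and 379 CPM in head, against 21.97, 26.8 and 35.0 CPM in thorax. nAChRalpha6 had 231, 214 and 296 CPM in head, against 10.0, 18.8 and 19.0 CPM in thorax. These were the most strongly head-biased members, with log2 fold changes of 3.96 (SE 0.27, adjusted p = 8.36e-08) for nAChRalpha6 and 3.47 (SE 0.25, adjusted p = 1.22e-07) for nAChRalpha5, or 15.6-fold and 11.1-fold. nAChRalpha7 had 101, 106 and 134 CPM in head, against 13.8, 15.8 and 27.6 CPM in thorax. It was 6.04-fold higher in head, a log2 fold change of 2.59 (SE 0.29, adjusted p = 2.09e-05). Its interval (1.96 to 3.23) lay below that of nAChRalpha6 (3.38 to 4.54) and overlapped that of nAChRalpha5 (2.94 to 4.0). The protein-coding gene NimC4 overlaps nAChRalpha5 in the annotation, with 2.52 ± 0.38 CPM in head and 2.95 ± 1.48 CPM in thorax. The part of NimC4 in the nAChRalpha5 counts was not tested.

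nAChRbeta1, a subunit in which neonicotinoid resistance mutations have been found in other insects, had 169, 181 and 236 CPM in head, against 22.5, 36.0 and 26.0 CPM in thorax. The log2 fold change was 2.79 (SE 0.19, adjusted p = 1.0e-07), the smallest standard error of the family. nAChRbeta3, a subunit whose sequence is divergent from the others, went the other way. It had 15.4, 19.6 and 21.4 CPM in head, against 48.2, 42.8 and 24.3 CPM in thorax. The thorax libraries were all above the head libraries, but thorax replicate 3 was close to head replicate 3. The log2 fold change was -1.04 (SE 0.26, adjusted p = 0.00646), which makes nAChRbeta3 2.05-fold higher in thorax. Leaving out each of the 12 libraries in turn gave changes between -1.28 and -0.84, and the call held in each of these fits. nAChRbeta3 lies together with Ets21C, a transcription factor gene, in the annotation, and no source says if reads were assigned to genes by strand. Ets21C itself had 5.79, 4.64 and 3.75 CPM in head, against 5.49, 4.57 and 24.0 CPM in thorax, so that the thorax library with the lowest nAChRbeta3 had the highest Ets21C.

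**Figure D2:**
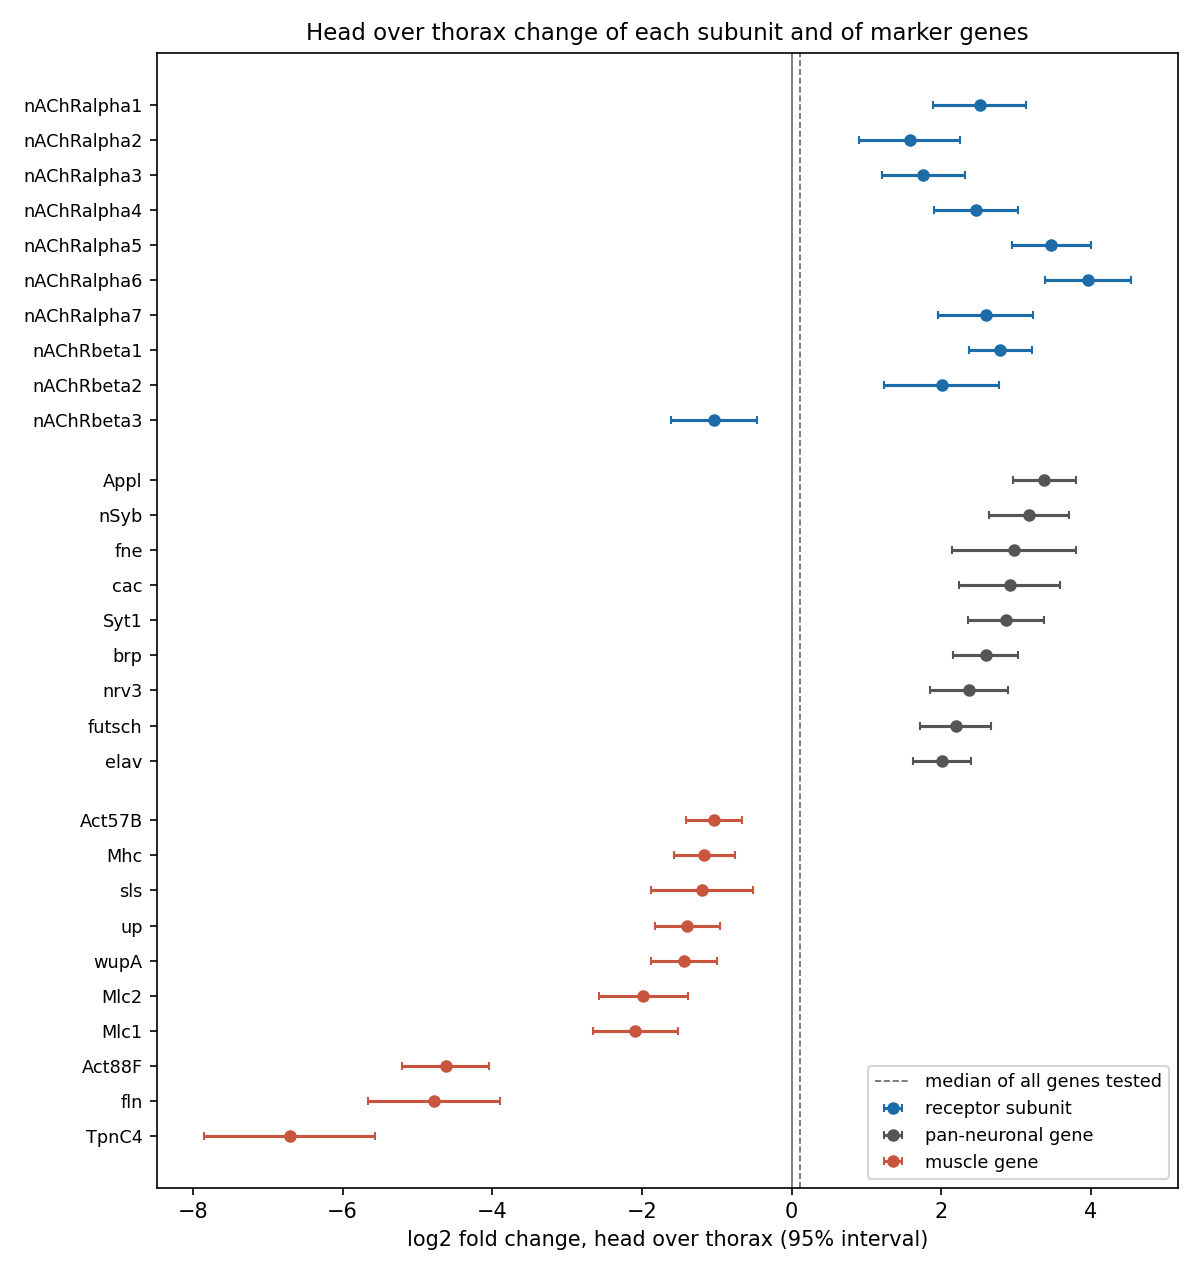
Log2 fold change of head over thorax (x axis) for each of the 10 subunits, the 9 pan-neuronal genes and the 10 muscle genes; points are estimates of the fit over 12 libraries and bars are 95% intervals. The subunits other than nAChRbeta3 lie between 1.58 and 3.96, the pan-neuronal genes between 2.01 and 3.38, and nAChRbeta3 at -1.04 beside the muscle genes at -6.71 to -1.03.

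The head over thorax difference of the family was next set beside that of neurons in general. All 9 pan-neuronal genes were higher in head, at a median of 2.86 on the log2 scale, ranging between 2.01 (elav, an RNA-binding protein of neurons) and 3.38 (Appl, the fly amyloid precursor-like protein). The 10 muscle genes were all lower in head, with a median of -1.71 and a range of -6.71 to -1.03. Of all genes tested, 23.2% were higher and 17.6% lower in head. The 5 glial genes gave no call at adjusted p under 0.05, with a median of -0.04, while repo had an unadjusted interval of 0.01 to 0.68. To ask which subunits differed from the neuronal genes as a panel, the libraries were rescaled to the geometric mean of the 9 pan-neuronal genes and the test was repeated over all genes. On this scale the median of all genes was -2.63, and 87.5% of them were called (1.63% higher and 85.9% lower in head). The 9 pan-neuronal genes themselves spread between -0.74 and 0.64 on it, with 1 called higher and 1 called lower. A call of a subunit is thus a difference from the panel mean and can lie near the spread of the panel genes.

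Relative to the neuronal panel, 2 subunits were higher in head, 3 were lower and 5 were not called. nAChRalpha6 was higher by 1.25 on the log2 scale (SE 0.35, adjusted p = 0.00273), a 2.38-fold difference beyond the panel. nAChRbeta3 was lower, at -3.84 (SE 0.42, adjusted p = 9.16e-08), or 14.3-fold higher in thorax for the same amount of neuronal transcripts. Both calls held in all 15 alternative fits. The other 3 calls were close to the threshold, at 0.74 (SE 0.34, adjusted p = 0.0491) for nAChRalpha5, -1.11 (SE 0.42, adjusted p = 0.0227) for nAChRalpha2 and -1.0 (SE 0.44, adjusted p = 0.0422) for nAChRalpha3. The call of nAChRalpha5 was lost in 9 of the 15 alternative fits, that of nAChRalpha2 in 5 and that of nAChRalpha3 in 11. With any 1 head library left out, and with thorax replicate 2 or 3 left out, 2 calls remained in place of 5, and without thorax replicate 1 or without any 1 ovary library 3 remained. Of the subunits that were not called, nAChRbeta1 had a change of 0.05 with an interval of -0.54 to 0.64, nAChRalpha4 of -0.24 (-0.68 to 0.20), nAChRalpha7 of -0.13 (-1.04 to 0.77), nAChRalpha1 of -0.20 (-1.18 to 0.78) and nAChRbeta2 of -0.73 (-1.89 to 0.43). The intervals of nAChRalpha1, nAChRalpha7 and nAChRbeta2 leave room for differences of more than 1 on the log2 scale from the panel.

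**Figure D3:**
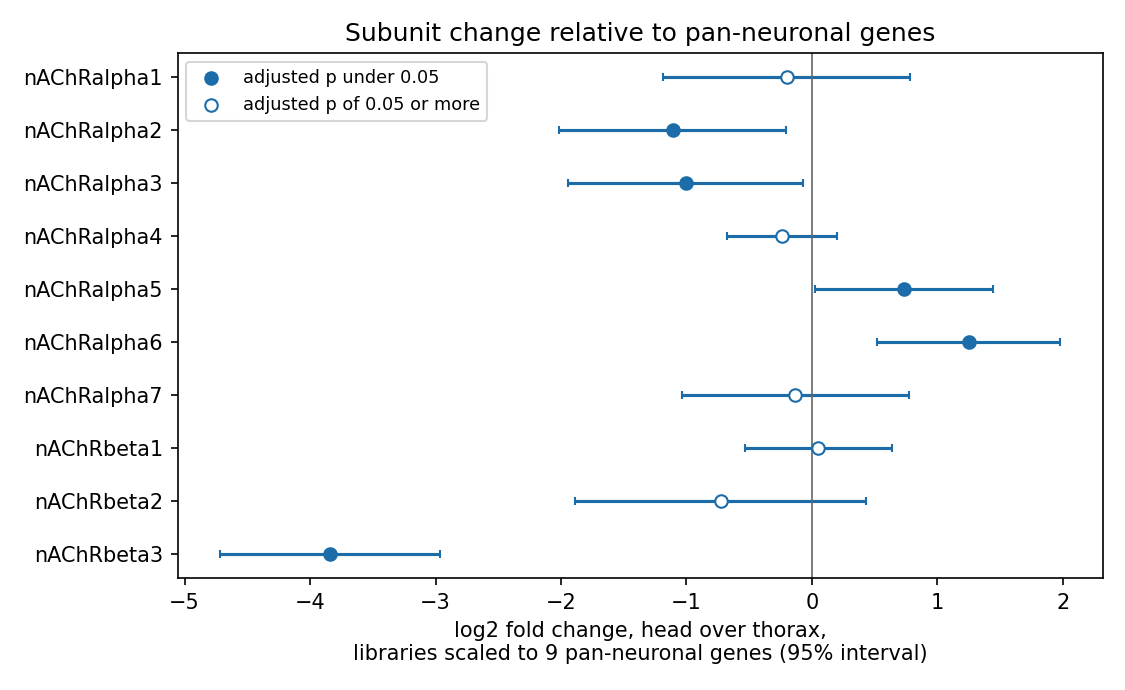
Log2 fold change of head over thorax after scaling each library to the 9 pan-neuronal genes (x axis), for the 10 subunits; bars are 95% intervals, filled points have an adjusted p under 0.05. nAChRalpha6 at 1.25 and nAChRbeta3 at -3.84 are farthest from 0, and the 5 open points have intervals that include 0.

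Levels were compared between subunits only per length of gene model, since a longer model collects more reads. The models ranged between 1532 bases for nAChRbeta3 and 9373 bases for nAChRalpha5. In head, nAChRbeta1 was the highest at 65.6 ± 12.02 CPM per kb (SD, n = 3), and it ranked 1 in all head libraries. It was followed by nAChRalpha5 (33.0 ± 6.62 CPM per kb) and nAChRalpha6 (32.2 ± 5.68 CPM per kb), which exchanged ranks 2 and 3 between libraries and did not differ beyond their spread. nAChRalpha7 (26.9 ± 4.16 CPM per kb) and nAChRalpha4 (21.3 ± 4.40 CPM per kb) held ranks 4 and 5 in every head library, although their mean ± SD ranges overlapped. nAChRbeta3 (12.3 ± 2.00 CPM per kb) and nAChRalpha1 (9.33 ± 0.83 CPM per kb) held ranks 6 and 7. The lowest were nAChRalpha2 (6.64 ± 0.75 CPM per kb), nAChRalpha3 (6.14 ± 0.73 CPM per kb) and nAChRbeta2 (5.83 ± 0.31 CPM per kb), whose order changed between libraries.

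The order in thorax was different. nAChRbeta3 ranked 1 in all thorax libraries with 25.1 ± 8.18 CPM per kb and nAChRbeta1 ranked 2 in all of them with 9.47 ± 2.35 CPM per kb. nAChRalpha7 ranked 3 in all of them with 4.49 ± 1.76 CPM per kb, and nAChRalpha6 ranked 7 in all of them with 2.08 ± 0.67 CPM per kb. nAChRalpha4 and nAChRalpha5 held ranks 4 and 5, at 3.89 ± 1.70 and 2.98 ± 0.70 CPM per kb, and exchanged them between libraries. The rest lay between 1.45 CPM per kb (nAChRbeta2) and 2.23 CPM per kb (nAChRalpha2). Summed over the family, the level was 219 ± 36.1 CPM per kb in head and 55.1 ± 4.96 CPM per kb in thorax. The 7 alpha subunits made up 135 ± 22.7 CPM per kb of it in head and 19.1 ± 5.90 CPM per kb in thorax, and the 3 beta subunits 83.7 ± 13.9 CPM per kb in head and 36.0 ± 8.79 CPM per kb in thorax.

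The makeup of the family was expressed as the share of each subunit in the summed RPKM (reads divided by the length of the gene model and by the library total) of the 10 genes, in which the library total cancels. nAChRbeta3 made up 5.11, 6.40 and 5.35% of the family in head, against 58.6, 46.1 and 31.0% in thorax. nAChRbeta1 made up 29.9 ± 0.94% in head and 17.1 ± 2.92% in thorax. nAChRalpha5 made up 15.0 ± 0.98% in head and 5.46 ± 1.61% in thorax, and nAChRalpha6 14.7 ± 0.69% in head and 3.77 ± 1.23% in thorax. Shares did not overlap between the tissues for these 4 subunits, 3 above and 1 below in head. An exact two-sided permutation test of 3 against 3 libraries gave p = 0.1 for each of the 4 shares (adjusted p = 0.25 over 10 shares), and 0.1 is the smallest p this design allows. The other 6 shares overlapped between head and thorax, with exact p of 0.2 or more. Thorax replicate 3 decided part of this: without it, 7 shares did not overlap in place of 4. The thorax libraries also differed more among themselves than the head libraries did, with an SD of the nAChRbeta3 share of 13.8 points in thorax and 0.69 points in head.

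**Figure D4:**
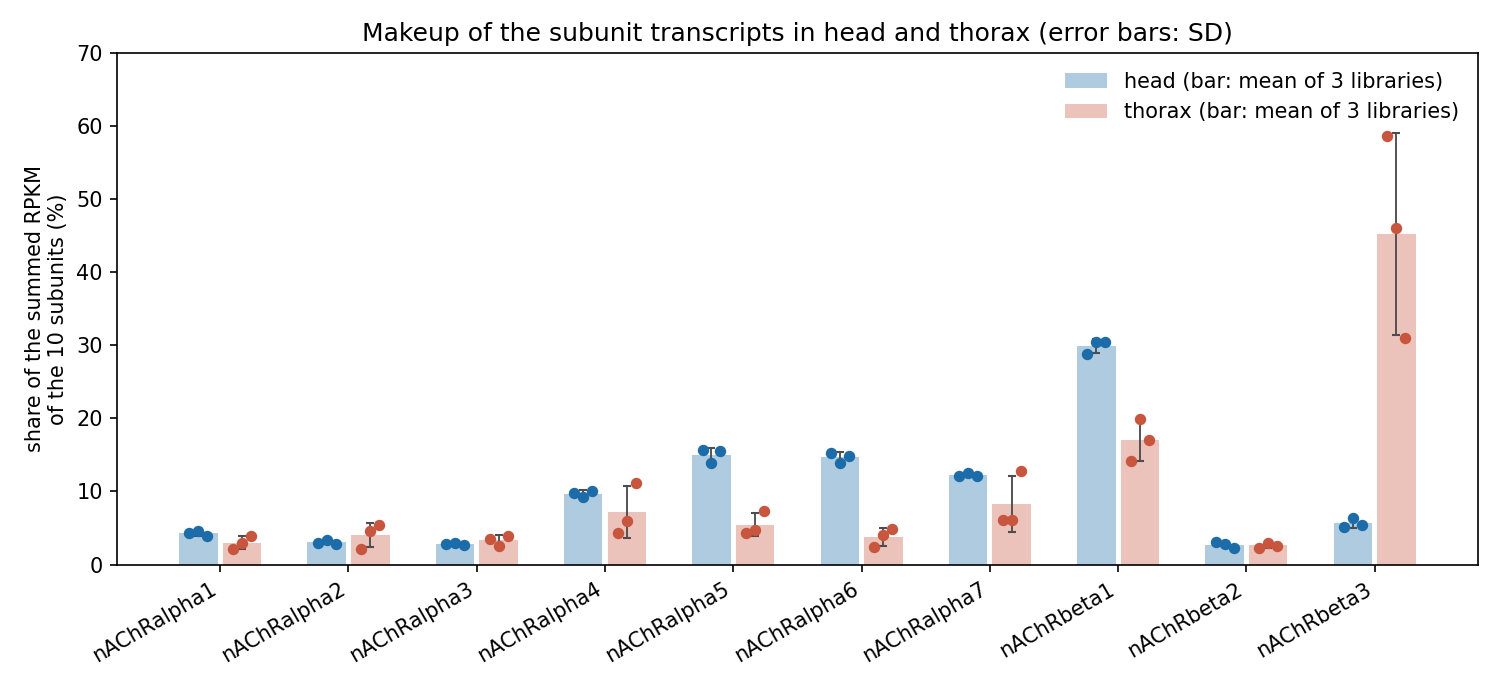
Share of each subunit in the summed RPKM of the 10 subunits (percent), in head and in thorax; bars are means of 3 libraries, error bars SD and points libraries. nAChRbeta3 takes 31.0 to 58.6% in thorax and 5.11 to 6.40% in head, and nAChRbeta1, nAChRalpha5 and nAChRalpha6 take larger shares in head. The large nAChRbeta3 share in thorax lowers all other shares there.

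Transcripts of most subunits were scarce in the eviscerated abdomen. In head over eviscerated abdomen all 10 subunits were higher in head, where 74.9% of all genes were called (37.6% higher and 37.3% lower in head). No subunit overlapped between these tissues, nor did 75.1% of all genes, and the median change of the subunits was 7.27 beside 0.01 for all genes. The smallest differences were those of nAChRbeta3, at 1.80 (SE 0.29, adjusted p = 7.69e-05), and nAChRalpha4, at 2.79 (SE 0.26, adjusted p = 4.64e-07). nAChRbeta1 stood at 1.73, 1.68 and 1.43 CPM in eviscerated abdomen and was 119-fold higher in head, a log2 change of 6.90 (SE 0.25, adjusted p = 9.14e-11). Between 0 and 8 reads per abdomen library were counted for each of the other 7 subunits. nAChRalpha3 had 0, 0 and 1 read, and nAChRalpha7 had 0, 3 and 0 reads. With so few reads, the ratio of pooled counts of head over eviscerated abdomen was 1214 for nAChRalpha7 (exact 95% interval 415 to 5891, counting error only) and 553 for nAChRalpha3 (99.0 to 21876). All abdomen reads of each of these genes came from 1 library. As each of the 12 libraries was left out, the log2 change ranged between 9.57 and 14.04 for nAChRalpha7 (highest without abdomen replicate 2) and between 8.21 and 11.32 for nAChRalpha3 (highest without abdomen replicate 3).

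In thorax over eviscerated abdomen 9 subunits were higher in thorax and nAChRalpha4 was not called, where 72.1% of all genes were called (36.4% higher and 35.7% lower in thorax). The libraries of the 9 did not overlap, as for 71.7% of all genes, and the median change of the subunits was 5.01. nAChRbeta3 had 48.2, 42.8 and 24.3 CPM in thorax, against 7.67, 4.01 and 4.42 CPM in eviscerated abdomen. Its log2 change of 2.84 (SE 0.29, adjusted p = 1.39e-06) was the smallest of the 9. nAChRalpha4 had 12.9, 20.1 and 31.6 CPM in thorax, against 16.5, 18.3 and 16.4 CPM in eviscerated abdomen. These libraries overlapped, and the change was 0.33 (interval -0.23 to 0.88, adjusted p = 0.271). With limma on RPKM it passed the test as higher in thorax, at 0.85 with 0.1 added (adjusted p = 0.0105) and 0.51 with 1 added (adjusted p = 0.0282), and by library size alone it was -0.023. The median of all genes moved too, to 0.63 (0.1 added), 0.32 (1 added) and -0.31 (library size alone), beside 0.06 in the main fit. nAChRalpha4 lay on the thorax side of this median each time. The sign for nAChRalpha4 also depended on 1 library: without thorax replicate 3 the change was -0.05, and without thorax replicate 1 it was 0.59 and passed the test.

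Ovary held few subunit transcripts except those of nAChRalpha4. In head over ovary all 10 were higher in head, where 85.9% of all genes were called (45.1% higher and 40.8% lower in head) and 89.9% did not overlap between the libraries. nAChRalpha2 and nAChRalpha7 had 0 reads in all 3 ovary libraries. Taking 3 reads over the ovary group as the limit, or 0.0275 CPM, nAChRalpha7 was at least 4174-fold and nAChRalpha2 at least 575-fold higher in head than in ovary. nAChRalpha1 and nAChRalpha6 had 2 ovary reads each, and nAChRalpha3, nAChRalpha5, nAChRbeta2 and nAChRbeta3 between 5 and 8 over the 3 libraries. nAChRbeta1 was measurable in every ovary library, at 0.764, 0.801 and 0.70 CPM, and was 257-fold higher in head, with a log2 change of 8.01 (SE 0.25, adjusted p = 6.92e-12). With the genes that had no ovary reads set at their bounds, the median change of the subunits was 8.71 in head over ovary and 7.68 in thorax over ovary. Thorax over ovary gave 9 higher and 1 lower subunit, where 83.9% of all genes were called (42.9% higher and 41.0% lower in thorax) and 87.5% did not overlap.

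nAChRalpha4 was the exception in ovary. It had 40.4, 36.7 and 41.6 CPM there, from 1640, 1055 and 1662 reads, and made up 95.3% of the summed RPKM of the family on average. It was higher in head than in ovary by 1.58 on the log2 scale (SE 0.25, adjusted p = 3.92e-05), or 2.99-fold. Against ovary it was lower in thorax, at -0.89 (SE 0.25, adjusted p = 0.00491), and lower in eviscerated abdomen, at -1.21 (SE 0.25, adjusted p = 7.94e-04), 2.32-fold higher in ovary. The thorax over ovary call was lost with DESeq2 (-0.50, adjusted p = 0.0878) and with upper quartile factors (-0.58, adjusted p = 0.0555). Its head over ovary change turned with the scaling. With the RPKM of the authors, for which the median of all genes moved to -1.95, nAChRalpha4 passed the test as lower in head, at -0.60 (adjusted p = 0.0459, limma on log2 of RPKM + 0.1) and at -0.52 with 1 added (adjusted p = 0.0190), although relative to this median it was still on the head side. A long noncoding RNA gene, lncRNA:CR46475, overlaps nAChRalpha4 in the annotation, and its part in the counts was not tested.

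In eviscerated abdomen over ovary 6 subunits were higher in abdomen, 1 was lower and 3 were not called, where 68.7% of all genes were called (35.3% higher and 33.4% lower in abdomen) and 74.4% did not overlap. nAChRbeta3 was the clearest, with 7.67, 4.01 and 4.42 CPM in eviscerated abdomen, against 0.0247, 0.0697 and 0.0750 CPM in ovary. Its log2 change was 6.44 (SE 0.49, adjusted p = 7.02e-08), 86.9-fold. The changes of nAChRalpha1, nAChRalpha2, nAChRalpha5 and nAChRalpha6 rested on 5, 7, 19 and 11 abdomen reads in all, and that of nAChRalpha1 (adjusted p = 0.0350) was lost in 7 of 21 alternative fits. nAChRbeta1 was higher by 1.11 (SE 0.28, adjusted p = 0.00283). On the RPKM scale with limma its sign turned and it was not called (-0.56 with 0.1 added, adjusted p = 0.0638; -0.14 with 1 added, adjusted p = 0.559), and the calls of nAChRalpha1, nAChRalpha2, nAChRalpha5 and nAChRalpha6 were lost there too. The median of all genes moved there to -1.74 (0.1 added) and -1.43 (1 added), beside 0 in the main fit. Relative to this median nAChRbeta1 was still on the abdomen side. nAChRalpha7, whose 3 abdomen reads all came from 1 library, was not called (adjusted p = 0.0570), but it passed the test in 5 of 21 alternative fits, among them DESeq2 (4.35, adjusted p = 0.00555). For nAChRalpha3 and nAChRbeta2, with 1 and 6 abdomen reads, a difference was not detectable at this depth.

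The levels in eviscerated abdomen stand beside ovarian markers in the same libraries. nAChRalpha4 lay between 16.4 and 18.3 CPM in the 3 abdomen libraries, while the summed germline genes were at 675, 1780 and 1484 CPM there and the follicle cell genes at 4048, 6009 and 4706 CPM. Germline genes summed to 43.4 to 58.1 CPM in head and 15.6 to 30.2 CPM in thorax. The part of ovarian RNA in the nAChRalpha4 level of the abdomen was not tested. nAChRbeta3 averaged 5.37 ± 2.00 CPM in eviscerated abdomen and was at or under 0.0750 CPM in each ovary library. The 10 muscle genes summed to 5926 to 7812 CPM in head, 15632 to 17567 CPM in thorax, 4578 to 9424 CPM in eviscerated abdomen and 379 to 460 CPM in ovary. A single gene, sls, which codes for a giant titin-like protein of the sarcomere, took more than any other in these sums. The other 9 muscle genes summed to 2247, 2319 and 2789 CPM in head, 7610, 7327 and 5420 CPM in thorax, 1776, 1519 and 1698 CPM in eviscerated abdomen and 135 to 148 CPM in ovary. Among the thorax libraries nAChRbeta3 was lowest in replicate 3, and so were all 9 of these genes, while sls was highest there. The part of muscle in the nAChRbeta3 level was not tested.

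**Figure D5:**
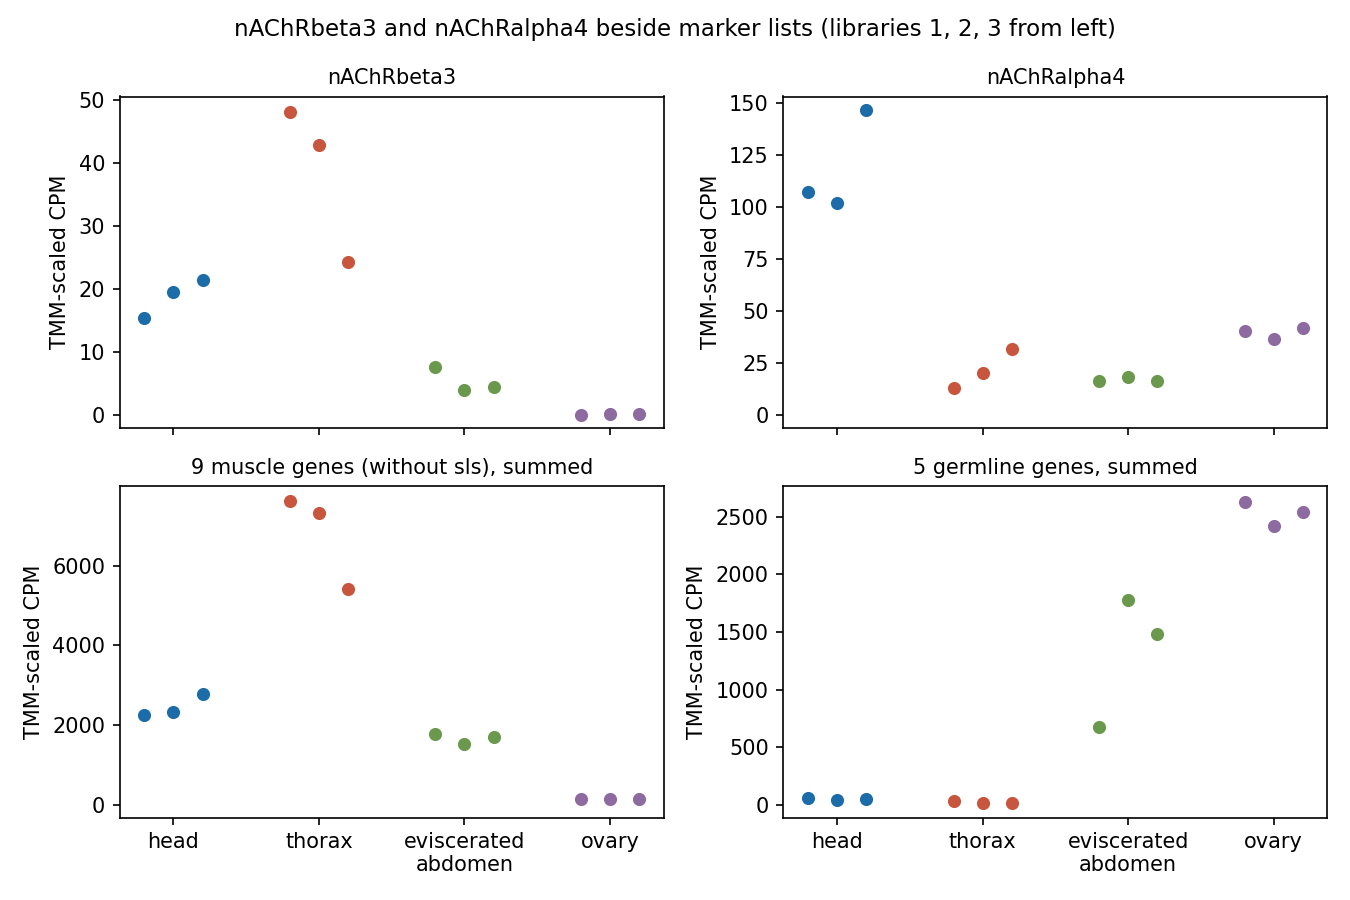
TMM-scaled CPM of nAChRbeta3 above the summed muscle genes other than sls (9 genes) and of nAChRalpha4 above the summed germline genes, in each library of head, thorax, eviscerated abdomen and ovary (linear axes, replicates 1 to 3 from the left). nAChRbeta3 is highest in thorax at 24.3 to 48.2 CPM, with replicate 3 the lowest thorax library for nAChRbeta3 and for the muscle sum, and nAChRalpha4 is at 16.4 to 18.3 CPM in the abdomen libraries, whose germline sums differ between 675 and 1780 CPM. With sls included, the thorax muscle sums were 15632, 17104 and 17567 CPM, highest in replicate 3. The sum without sls was added after seeing the data. Thorax replicate 3 was also lowest for the glial and the fat body and oenocyte sums, which are not drawn.

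Genes of acetylcholine synthesis, transport and breakdown and of the muscarinic receptors were compared as a list. Of 8 genes tested, 7 were higher in head than in thorax and 1 was not called, with a median log2 change of 2.68. Among all genes tested 23.2% were higher in head, and their median was 0.12. ChAT, which makes acetylcholine, averaged 145 ± 14.4 CPM in head and 14.8 ± 2.68 CPM in thorax, a 9.77-fold difference. VAChT, which loads it into vesicles, was 9.52-fold higher in head, and the muscarinic receptors mAChR-A and mAChR-B were 6.80-fold and 11.7-fold higher. Ace, the enzyme that breaks acetylcholine down, differed least of the genes that were called, with 234 ± 27.7 CPM in head and 146 ± 2.18 CPM in thorax, or 1.60-fold. qvr (also sleepless), whose product modulates nicotinic receptors and potassium channels, was 6.02-fold higher in head. The change of mAChR-C, 0.65, had an adjusted p of 0.437.

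Other Cys-loop receptor subunits were less uniform, with 8 of 12 higher in head, 1 lower and 3 not called, and a median log2 change of 1.27. The shares of all genes tested were 23.2% higher and 17.6% lower in head. Rdl, the GABA-gated chloride channel, was 10.4-fold higher in head, and ort, the histamine receptor of the neurons postsynaptic to photoreceptors, 36.4-fold. Of the 12 genes only CG7589 passed the test as lower in head. It averaged 5.97 ± 1.51 CPM in head and 65.9 ± 8.27 CPM in thorax, a log2 change of -3.46 (SE 0.23, adjusted p = 7.10e-08). The glutamate receptor subunits of the neuromuscular junction gave 0 higher and 1 lower of 4 tested with a median of 0.22, and GluRIIC, the lower gene, stood at 3.24 ± 2.20 CPM in head and 8.39 ± 0.24 CPM in thorax.

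Patterns across the 12 libraries were compared by Pearson's r of log2(CPM + 0.5), as a description, since libraries of a tissue resemble each other and a difference between tissues alone gives a high r. The 5 genes most like the mean of the 10 subunits were side-II, hbt, CG12605, CG17341 and tow, with r between 0.9985 and 0.9990. Among the subunits, nAChRalpha1 and nAChRalpha6 were the most alike pair (r = 0.998) and nAChRalpha4 and nAChRbeta3 the least (r = 0.01). The gene most like nAChRbeta3 was NtR (r = 0.997), that most like nAChRalpha4 was CG11360 (r = 0.988), and that most like nAChRalpha5 was mAChR-A (r = 0.999). onecut was the gene most like nAChRalpha7 (r = 0.999).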

How the data were processed

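Total RNA was depleted of ribosomal RNA and sequenced from 4 tissues with 3 libraries each. The authors mapped reads to the dm3 genome with Tophat (TopHat2 2.0.10 in the submitters' processing notes), and easyRNASeq gave reads per gene model; the deposited values are raw read counts. A second deposited table holds RPKM, for which the authors divided by totals 1.18 to 5.78 times the summed gene counts. Strand use is not stated, and the methods name a batch correction without naming batches, so none was fitted. The deposited comparisons of repeats hold the authors' own fold changes and p-values and were not used; repeat and small RNA tables hold no subunit gene.

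Counts were analysed with edgeR 4.0.16 in R 4.3.3 (TMM over all genes, filterByExpr, which kept 11188 of 13898 genes, quasi-likelihood test with tissue as the only term, prior count 0.125, Benjamini-Hochberg over all genes tested, threshold 0.05). Standard errors are the log2 change divided by the square root of F. Model lengths were recovered from counts and RPKM. Shares were tested in Python 3.11.15 with scipy 1.17.1. Of the 13898 genes, 13376 had a symbol in the ID table. Alternatives were DESeq2 1.42.0, limma 3.58.1 on log2(RPKM + 0.1 or + 1), upper quartile factors, library size alone, a replicate block, no filter, 1 CPM in 3 libraries, only the 2 tissues compared, other neuronal scalings (elav and nSyb alone, or summed panel counts), shares of counts, and each library left out; TMM over the genes tested and the muscle sum without sls were added after seeing the data. The fits were also run on simulated counts in which all tissues shared the same mean levels, apart from set genes changed in head. Such counts lack the wide differences between these tissues, so they cannot check the scaling under them. Precision rests on 3 libraries per tissue, and intervals on counts cover counting error only.

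The members and gene lists were chosen with earlier results of these data known. Genes named are the 10 members, the listed genes, genes that overlap a member in the annotation, and the genes of highest Pearson r (5 with the mean of the members and 1 with each member). ric-3 and para could not be matched to the table, and pHCl-1 was matched to a short older model.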

Additional observations from a re-analysis of the deposited data

How the results depend on the processing

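All 10 head over thorax calls kept their direction and passed the threshold in all 22 alternative fits, although scaling moved the median of all genes between -0.73 (limma on log2 of RPKM + 0.1) and 0.36 (library size alone), beside 0.12; nAChRalpha2 came closest to the threshold, at adjusted p = 0.0481. The count for eviscerated abdomen over ovary, 7, was 3 with only the 2 tissues compared, where 3 subunits passed the filter and all were called. It was 2 with limma on RPKM (+ 0.1 or + 1), whose cause was not tested. Over all genes 7684 were called in the main fit and 6987 with only the 2 tissues. With limma 9192 (+ 0.1) and 8691 (+ 1) of all genes were called, so that calls of all genes rose there while those of the subunits fell. Relative to the neuronal panel the count, 5, ranged between 2 and 5 as each library was left out, and shares without overlap, 4, ranged between 4 and 7. In the panel fits where the count fell, 9468 to 9900 of all genes were called, beside 9788 in the main fit. Replicate numbers did not pair the libraries (2 of 18 same-number pairs had correlated deviations over 0.1, range -0.18 to 0.16); with the replicate block the head over thorax count was 10, the neuronal count 4, nAChRalpha3 lost its call there (adjusted p = 0.0622) and nAChRalpha7 gained one in abdomen over ovary (adjusted p = 0.0306).

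Signs reversed, with ranges over the libraries left out: for thorax over abdomen, nAChRalpha4 (-0.023 by library size alone, -0.048 to 0.59 with 1 library left out, lowest without thorax replicate 3); for head over ovary, nAChRalpha4 on RPKM (-0.60 and -0.52); for abdomen over ovary, nAChRbeta1 on RPKM (-0.56 and -0.14) and nAChRbeta2 (-0.095 and -0.011 on RPKM, -0.55 to 1.97 with 1 library left out); and relative to the panel, each reversed only without thorax replicate 3, nAChRalpha4 (-0.39 to 0.021), nAChRalpha7 (-0.29 to 0.10) and nAChRbeta1 (-0.077 to 0.19). On shares of summed counts, which do not correct for length, head minus thorax was -0.255 points for nAChRalpha1, -1.38 for nAChRalpha4, -0.409 for nAChRalpha7 and -1.19 for nAChRbeta2, and the nAChRbeta2 share ranged between -0.078 and 0.272 points with 1 library left out. The cause of these was not tested. The median of all genes also moved, to -0.31 for thorax over abdomen by library size alone. On RPKM it was -1.95 and -1.59 for head over ovary, and -1.74 and -1.43 for abdomen over ovary (0.1 and 1 added). For abdomen over ovary nAChRalpha7 ranged between 0.0 and 4.48 with 1 library left out, and is 0.0 without abdomen replicate 2 because no read is left in either tissue. Depth limits the abdomen and ovary values of the 8 subunits with fewer than 10 reads in at least 1 of these tissues.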

Other observations

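Among the other Cys-loop receptor subunits, CG6927 was the one with its highest level in ovary. It averaged 0.808 ± 1.15 CPM in head (36, 0 and 5 reads), 0.397 ± 0.017 CPM in thorax, 76.1 ± 12.1 CPM in eviscerated abdomen and 121 ± 4.41 CPM in ovary. CG12344 was present in all 4 tissues, at 7.31 ± 1.66 CPM in head, 4.39 ± 0.68 CPM in thorax, 4.32 ± 0.15 CPM in eviscerated abdomen and 3.00 ± 0.34 CPM in ovary. CG8916 had 80, 62 and 83 reads in head, against 2, 1 and 0 reads in thorax, and 0 reads in ovary.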
